A study of Triticum aestivum with 6 samples.

Results

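Developing wheat grains of the same spike do not fill alike, and RNA from the inferior grains of 6 libraries was compared to find the genes by which a single library, SPD replicate 1, lay outside the other 5. A gene identifier was taken where its level in SPD replicate 1 was at least 2-fold above the highest of the other 5 libraries and at 10 CPM or more, or at least 2-fold below the lowest of them with that lowest at 10 CPM or more. CPM is the read count of a gene scaled to a library total common to all 6. Identifiers of the form Traes_, which name a chromosome arm, were eligible unless they lay on 1 of 12 arms left outside the selection (1AS, 1BS, 1DS, 4AL, 5AS, 5BS, 5DS, 6AS, 6BS, 6DS, 7AS and 7DS). This gave 11 of 73061 eligible identifiers, out of 102602 entries in all: 3 were higher in SPD replicate 1 and 8 were lower. Members were selected on their CPM in all 6 libraries, so these levels are a description and carry no test.

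The libraries came from field-grown bread wheat, Triticum aestivum, cultivar Xinong 538, with 3 in the group SPD and 3 in the group CK. The labels spell out neither name. All 6 share a treatment text, exogenous spermidine, and a stage entry of days 8 and 16 after anthesis, so neither separates the groups. Whether libraries within a group stem from different plants or plots is not stated in the labels, and p-values therefore reflect nothing beyond their spread, possibly a technical one. The grain as a whole was sampled, and fewer cells of a type cannot be told apart from less RNA per cell.

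Inferior grains sit at the later-flowering positions of a spike and usually end up lighter than the superior ones. A filling grain is mostly starchy endosperm, which makes starch and storage proteins, surrounded by an aleurone layer and a pericarp that is green while the grain is young. Spermidine is a polyamine, made in plants from putrescine and decarboxylated S-adenosylmethionine, and it has been studied in relation to grain filling and stress. Bread wheat is hexaploid, with A, B and D subgenomes, and many genes therefore exist as closely similar copies on matching arms. The 11 identifiers were not paired with gene names in the deposited table, and none matched the RefSeq gene table of the assembly IWGSC CS RefSeq v2.1, so their functions are not given here. They are called below by chromosome arm, with a letter in order of level where an arm holds several. Full identifiers are given for 2 members in each direction.

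SPD replicate 1 stood apart by few genes and by little. The same rule applied to each library in turn found 11 identifiers in SPD replicate 1, 2 in SPD replicate 2, 421 in SPD replicate 3, 5 in CK replicate 1, 5 in CK replicate 2 and 3 in CK replicate 3. Of the 3 higher members, each was at 11.3 to 15.04 CPM in SPD replicate 1. They made up 0.0215% of the 13931 eligible identifiers at 10 CPM or more in that library, against 0.0215% in CK replicate 1 and 0.0216% in CK replicate 2. This share was 0.00727% in SPD replicate 2, 0.0073% in CK replicate 3 and 1.73% in SPD replicate 3. The 8 lower members made up 0.0708% of the 11299 eligible identifiers whose other 5 libraries were at 10 CPM or more, against 0.00884% to 1.58% for the same share in the other libraries. SPD replicate 3, the highest of these, stood far outside the rest, with 237 identifiers higher and 184 lower. With SPD replicate 3 left out of the comparison, 10 identifiers were higher and 16 lower in SPD replicate 1. With CK replicate 3 left out 8 were higher, and with SPD replicate 2 left out 13 were lower. Leaving out a library can only keep or raise these counts, and the same was not computed for the other libraries.

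**Figure D1:**
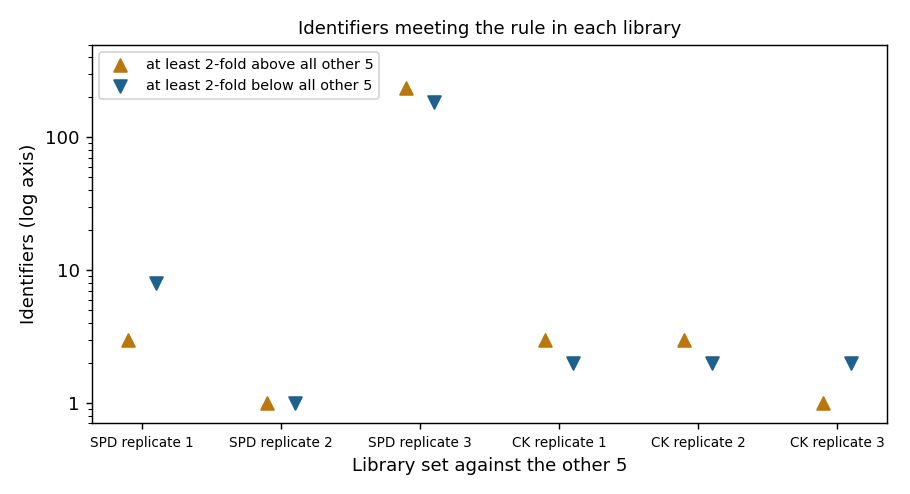
Number of eligible identifiers (log axis) that lay at least 2-fold above (upward triangles) or below (downward triangles) all other 5 libraries, for each library on the horizontal axis. SPD replicate 1 has 3 above and 8 below, SPD replicate 3 has 237 and 184, and the other 4 libraries have 1 to 3 of each.

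The difference of SPD replicate 1 from the rest was spread over many genes by small amounts. Among 13833 eligible identifiers with a mean of at least 10 CPM, SPD replicate 1 held the highest level of the 6 libraries in 20.7% and the lowest in 13.4%. In the other 5 libraries these shares were 12.1% to 17.6% for the highest and 11.02% to 35.5% for the lowest, with the top of that range in SPD replicate 3. It exceeded the other 5 by more than 1.2-fold in 426 identifiers and lay below them by that much in 372. The same counts were 837 and 1898 in SPD replicate 3, and 81 to 261 above and 215 to 320 below in the other 4 libraries. Beyond 1.5-fold the numbers were 22 above and 63 below in SPD replicate 1, 202 and 561 in SPD replicate 3, and 3 to 12 above and 25 to 39 below in the other 4. The median absolute difference from the median of the other 5 libraries was 0.16 on the log2(CPM + 1) scale in SPD replicate 1, against 0.23 in SPD replicate 3 and 0.13 to 0.15 in the other 4 libraries. These shares, counts and medians used CPM by library total alone, where the most abundant transcripts of a library weigh on all others. They were not computed under another scaling, so the excess of highest over lowest levels may depend on it. In a principal component analysis of the 50136 genes that passed the filter on low counts, the second component held 21.3% of the variance and placed SPD replicate 1 at 105, with the other 5 between -42.4 and -0.060. Without the 11 members that score was also 105, though removing 11 of 50136 genes could hardly move it. The first component held 35.4% and placed SPD replicate 3 at 140, with the other 5 libraries between -42.6 and -20.7. In the 18382 tested genes averaging 10 CPM or more, the second component held 14.4% and placed SPD replicate 1 at 30.3, against -13.0 to -0.33.

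The 8 lower members included the most abundant identifiers of the set. The highest level belonged to Traes_4DL_C7294E42F (4DL-a), which had 28.2 CPM in SPD replicate 1, 78.1 and 60.3 CPM in SPD replicates 2 and 3, and 109, 96.1 and 63.4 CPM in CK replicates 1 to 3. The next, 4DL-b, had 24.8 CPM in SPD replicate 1, 96.0 and 49.7 CPM in SPD replicates 2 and 3, and 108, 112 and 68.6 CPM in CK replicates 1 to 3. In both, SPD replicate 3 and CK replicate 3 were the lowest of the other 5 libraries, and the level of SPD replicate 2 fell inside the CK range. The identifier on 2DS had 9.48 CPM in SPD replicate 1, 27.6 and 19.2 CPM in SPD replicates 2 and 3, and 36.4, 29.2 and 21.2 CPM in CK replicates 1 to 3. Its 6 libraries stood in the same order as those of 4DL-a, from CK replicate 1 at the top through CK replicate 2, SPD replicate 2, CK replicate 3 and SPD replicate 3 to SPD replicate 1. The second identifier on 7DL, 7DL-b, had 9.32 CPM in SPD replicate 1, 23.0 and 18.7 CPM in SPD replicates 2 and 3, and 25.4, 21.0 and 20.6 CPM in CK replicates 1 to 3. In these 4 members SPD replicate 3 was the lowest of the other 5 libraries.

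In the remaining lower members SPD replicate 3 was not the nearest library. The first identifier on 7DL, 7DL-a, had 19.1 CPM in SPD replicate 1, 43.6 and 73.5 CPM in SPD replicates 2 and 3, and 51.1, 82.8 and 41.8 CPM in CK replicates 1 to 3. That on 5DL had 9.73 CPM in SPD replicate 1, 22.6 and 25.4 CPM in SPD replicates 2 and 3, and 26.6, 31.6 and 19.9 CPM in CK replicates 1 to 3. CK replicate 2 was the highest and CK replicate 3 the lowest of the other 5 libraries in both. The identifier 4DL-c had 6.21 CPM in SPD replicate 1, 16.6 and 13.1 CPM in SPD replicates 2 and 3, and 12.8, 14.4 and 12.9 CPM in CK replicates 1 to 3. It was the steadiest of the lower members, with a highest level 1.29 times the lowest among the other 5 libraries. Traes_1AL_F0648088C, the member with the largest fold, had 3.51 CPM in SPD replicate 1, 11.4 and 19.0 CPM in SPD replicates 2 and 3, and 13.7, 18.2 and 11.8 CPM in CK replicates 1 to 3. SPD replicate 3 held its highest level, the opposite of 4DL-a. Together the 8 lower members had 110.4 CPM in SPD replicate 1, 318.8 and 278.9 CPM in SPD replicates 2 and 3, and 382.6, 405.1 and 260.2 CPM in CK replicates 1 to 3.

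None of the 3 higher members exceeded 15.04 CPM in any library. Traes_7AL_ADBB1224B (7AL-a) had 15.04 CPM in SPD replicate 1, 7.09 and 0.284 CPM in SPD replicates 2 and 3, and 3.04, 6.05 and 4.20 CPM in CK replicates 1 to 3. Its level in SPD replicate 3 rested on 3 counts, so SPD held both its highest and its lowest library. Traes_7AL_7CC969251 (7AL-b) had 14.1 CPM in SPD replicate 1, 6.39 and 4.64 CPM in SPD replicates 2 and 3, and 4.80, 4.61 and 5.81 CPM in CK replicates 1 to 3. The other 5 libraries of 7AL-b stood close together, the highest at 1.39 times the lowest. The identifier on 6AL had 11.3 CPM in SPD replicate 1, 2.70 and 4.73 CPM in SPD replicates 2 and 3, and 4.24, 5.60 and 4.74 CPM in CK replicates 1 to 3. SPD replicate 2 was the nearest library for both 7AL members and the farthest one for that on 6AL. Summed, the 3 higher members had 40.5 CPM in SPD replicate 1, 16.2 and 9.66 CPM in SPD replicates 2 and 3, and 12.1, 16.3 and 14.7 CPM in CK replicates 1 to 3.

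**Figure D2:**
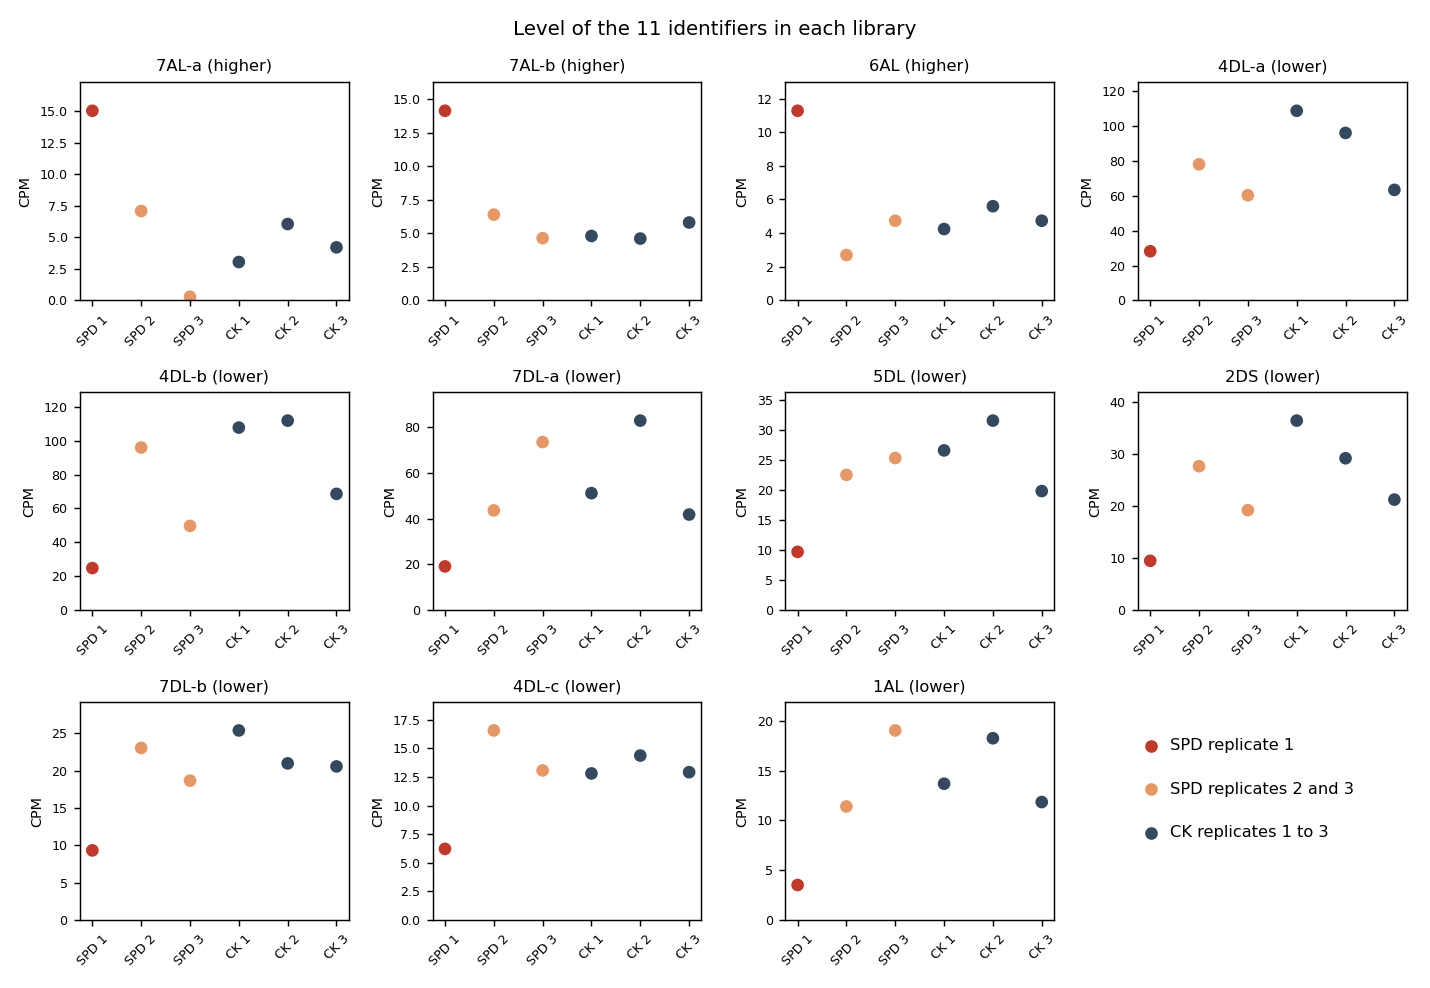
Level of each of the 11 identifiers in CPM (vertical axes start at 0) in the 3 SPD and 3 CK libraries, 1 point per library. SPD replicate 1 is the highest point in the 3 panels marked higher and the lowest in the 8 marked lower; in 7AL-a, SPD replicate 3 lies near 0, at 0.284 CPM.

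Most members lay close to the 2-fold limit. The fold between SPD replicate 1 and the nearest other library ran from 2.01 to 2.21 in the higher members. In the lower members it was 2.001 to 2.19, apart from 3.24 in Traes_1AL_F0648088C. Just inside the limit were 6AL at 2.01 on the higher side and 4DL-b at 2.001 on the lower side. Just outside were an identifier on 2DL at 1.88 on the higher side, with 10.9 CPM in SPD replicate 1 and 5.78 CPM in the nearest library, and an identifier on 2BS at 1.98 on the lower side, with 32.2 CPM in SPD replicate 1 and 63.9 CPM in the nearest library. The limit of 10 CPM left out an identifier on 2AS that was 3.01-fold higher at 9.23 CPM in SPD replicate 1. The same limit left out another on 2AS that was 2.45-fold lower, at 3.68 CPM in SPD replicate 1 and 8.995 CPM in the nearest library. Set against the median of the other 5 libraries instead of the nearest, the folds were 2.38 to 3.58 in the higher members and 2.10 to 3.89 in the lower members.

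The depth behind the distance to the nearest library is given by counting intervals. The 95% exact Poisson intervals, which cover counting error only, did not overlap between SPD replicate 1 and the nearest other library in 3 of 3 higher and 8 of 8 lower members. For Traes_1AL_F0648088C, with 43 counts in SPD replicate 1 and 148 in SPD replicate 2, they were 2.54 to 4.73 CPM and 9.64 to 13.4 CPM. For 6AL, with 138 counts in SPD replicate 1 and 62 in CK replicate 2, they were 9.47 to 13.3 CPM and 4.29 to 7.18 CPM. Members were taken for this distance at 10 CPM or more, which at these totals largely fixes that the intervals lie apart.

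**Figure D3:**
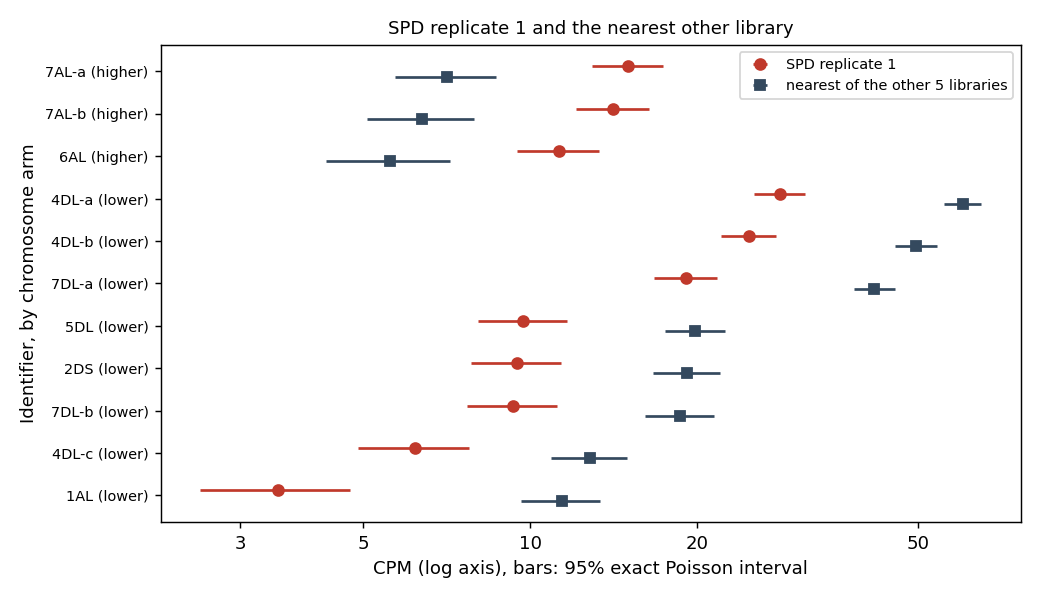
Level in CPM (log axis) of each of the 11 identifiers in SPD replicate 1 (circles) and in the nearest of the other 5 libraries (squares), with 95% exact Poisson intervals as bars. The bars of SPD replicate 1 and of the nearest library are apart in all 11, and the gap is widest in 1AL, at 3.51 against 11.4 CPM.

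The lower members lay mostly on the D subgenome, and the higher ones on A. Of the 8 lower members, 7 were on D, with 3 of them on 4DL and 2 on 7DL, and 1 was on A. Among the 11299 identifiers that could have been lower members by level, 35.8% were on D, 3.93% on 4DL and 3.25% on 7DL. None was on B, which held 31.8% of those 11299 identifiers. All 3 higher members were on A, 2 of them on 7AL, where A held 32.5% and 7AL 3.01% of the 13931 identifiers at 10 CPM or more in SPD replicate 1. The lean to D was weaker with a limit of 1.5-fold, where 20 of 50 lower identifiers, or 40.0%, were on D, 5 on 4DL and 4 on 7DL. On the higher side at that limit A held 22 of 62 identifiers, B 19 and D 21. Whether members on the same arm are similar copies that share reads was not tested. The sources used here do not say how such reads were counted. On the 12 arms left out, 2 of 20650 identifiers met the same limits on the higher side and 0 on the lower side. The eligible set had 3 and 8 of 73061, and the subgenome of the 2 left out is not given here. No entry met the limits among 8443 chromosome 3B identifiers of another format or among 448 other entries, most of them gene symbols.

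SPD replicate 1 is 1 of the 3 SPD libraries and holds the extreme level of every member, so the SPD against CK values of the members follow in part from the choice and are a description. With all 6 libraries, the fitted log2 fold change of SPD over CK was positive in 3 of 3 higher members, with a median of 0.73, and negative in 8 of 8 lower members, with a median of -0.40, beside a median of 0.0048 over all 50136 genes tested. Without SPD replicate 3 the medians were 1.001 in the higher and -0.68 in the lower members, and without SPD replicate 2 that of the lower members was -0.61. Traes_4DL_C7294E42F averaged 55.5 ± 25.3 CPM in SPD and 89.5 ± 23.4 CPM in CK (SD, n = 3 each), a log2 fold change of -0.67 (SE 0.31). Traes_7AL_7CC969251 averaged 8.39 ± 5.05 CPM in SPD and 5.07 ± 0.64 CPM in CK, at 0.73 (SE 0.37). The largest standard error, 0.76, was that of Traes_7AL_ADBB1224B, at 0.76, or at -0.16 in limma-voom and 0.15 with the replicate block. SPD and CK values overlapped in all 11 members, against groups that did not overlap in 9.48% of the genes tested. The quasi-likelihood test of edgeR called none of the 11 and 0 of 50136 genes (0%) at an adjusted p of 0.05. Without adjustment 0 of the 11 and 1800 genes, or 3.59%, lay under 0.05. The unadjusted member count was 6 without SPD replicate 3 (4.84% of all genes), 4 without SPD replicate 2 (7.76%) and 4 with no filter (3.91%). It was 2 without CK replicate 3 (3.34%), in limma-voom (3.56%) and with the replicate block (2.88%), and 1 scaled by library size alone (3.58%). These counts follow in part from the choice of members, and 0 members were called after adjustment in each fit. Of all genes, 3 were called by DESeq2 (Wald test) and 0 by limma-voom, with no member among them.

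The contrast of SPD replicates 2 and 3 with CK uses none of the values of SPD replicate 1, and the rule treats these 5 libraries alike. Their highest or lowest level still took part in the choice of members, so the member values here are a description too. In this contrast, 1 of the 3 higher members had a positive and 2 a negative log2 fold change, with a median of -0.23. Of the lower members, 3 had positive and 5 negative values, with a median of -0.085, beside 0.0041 over all 52166 genes tested. Traes_4DL_C7294E42F lay at -0.35 (SE 0.22), or at -0.17 with the replicate block, with 69.2 ± 12.6 CPM in SPD (SD, n = 2) and 89.5 ± 23.4 CPM in CK (SD, n = 3). The largest value of the lower members was that of 4DL-b, at -0.38 (SE 0.28), and 2DS lay at -0.28 (SE 0.25). Traes_1AL_F0648088C lay at 0.085 (SE 0.28) and 4DL-c at 0.17 (SE 0.21). Of the higher members, Traes_7AL_ADBB1224B lay at -0.23 (SE 0.81), or at -1.15 in limma-voom and -1.23 with the replicate block, Traes_7AL_7CC969251 at 0.14 (SE 0.30) and 6AL at -0.37 (SE 0.36). None of the 11 was called by edgeR, each with an adjusted p of 0.9995. Over all genes 0 were called (0%), 1794, or 3.44%, lay under an unadjusted 0.05 with 0 members among them, and DESeq2 called 1 gene and limma-voom 0. Groups did not overlap in 0 of the 11 members, against 18.3% of the genes tested.

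The counts of called genes changed with SPD replicate 2 left out, which sets SPD replicate 3 alone, without replication, against CK. Then 2010 of 55204 genes (3.64%) and 2 of the 11 members were called by edgeR, and the lone library was taken to vary like those of CK. The levels of these libraries took part in the choice of members, and SPD has no replicate here. The member calls are therefore a description and carry no test. Traes_7AL_ADBB1224B was lower in SPD replicate 3, at a fitted -3.88. That library held 3 counts of it, so no bound is read from the fitted value. The other was 4DL-b, at -0.92, where SPD replicate 3 had 49.7 CPM and CK had 68.6 to 112 CPM. That level of SPD replicate 3 was also the nearest one to SPD replicate 1, from which the 2.001-fold distance of 4DL-b was taken.

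**Figure D4:**
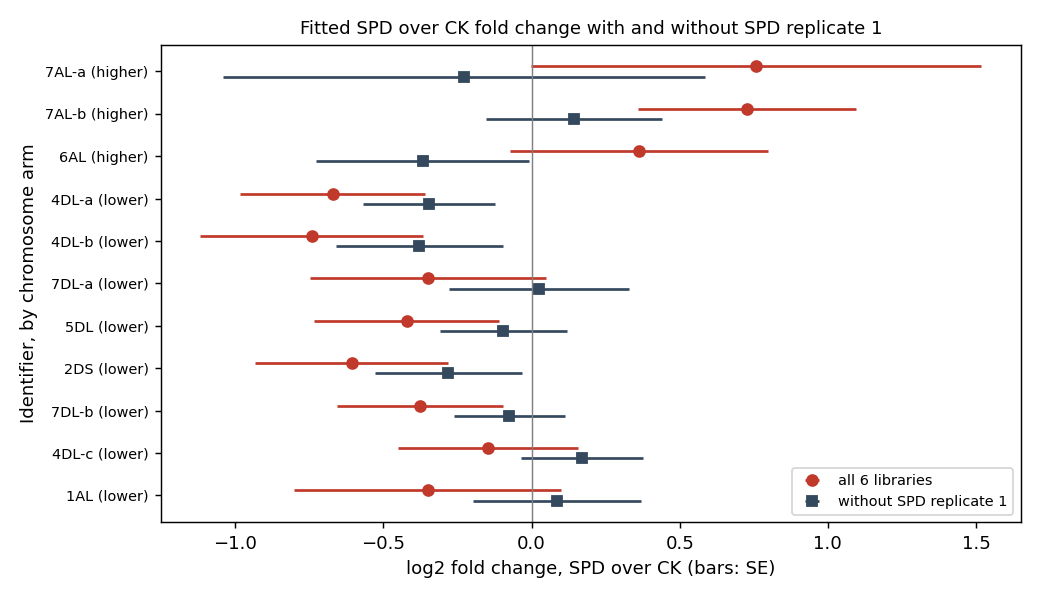
Fitted log2 fold change of SPD over CK (horizontal axis, bars are standard errors) for each of the 11 identifiers, with all 6 libraries (circles) and without SPD replicate 1 (squares). All 3 higher members are positive and all 8 lower ones negative with SPD replicate 1, with medians of 0.73 and -0.40, and the medians without it are -0.23 and -0.085.

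Genes with a symbol showed how SPD replicate 1 stood in known parts of the grain. Levels of the matched starch, storage and texture genes in it ran from 2.53 CPM for GLU-D1-2B, a glutenin subunit, and 4.49 CPM for AGA.1, a subunit of ADP-glucose pyrophosphorylase, to 3276 CPM for PINB. PINB and PINA, the puroindolines that govern grain hardness, and WAXY, an amylose-making starch synthase bound to the starch granule, were each at their lowest of the 6 libraries there, PINA with 2761 CPM and WAXY with 1755 CPM. The 5 thionin and inhibitor genes, products of grain defence, were all at their lowest level in SPD replicate 1, which summed to 8313 CPM against 9144 to 10485 CPM in the other 5 libraries. Of these XIPI, a xylanase inhibitor, was the farthest down, with 49.8 CPM in SPD replicate 1, 117 and 80.0 CPM in SPD replicates 2 and 3, and 118, 192 and 91.2 CPM in CK replicates 1 to 3. In THI1.1 the margin was narrow, with 2973 CPM in SPD replicate 1 against 2998 CPM in SPD replicate 2. The 4 matched storage and texture genes summed to 9171 CPM in SPD replicate 1, the lowest sum, against 9936 to 13550 CPM. Of the 4, 3 were at their lowest there, but GLU-D1-2B hardly differed, at 2.53 CPM against 2.54 CPM in SPD replicate 2. The 6 matched photosynthesis genes, which mark the green pericarp, summed to 624.4 CPM in SPD replicate 1, 438.4 and 876.5 CPM in SPD replicates 2 and 3, and 448.7, 552.2 and 429.2 CPM in CK replicates 1 to 3. None of the 6 was at its highest or lowest in SPD replicate 1, which was second to SPD replicate 3 in the sum. The part of these gene groups in the levels of the 11 members was not tested.

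In the other lists the sum of SPD replicate 1 lay within the range of the rest, apart from the embryo and maturation list, where it was the lowest. The 5 matched starch genes summed to 5086 CPM in SPD replicate 1, against 4720 to 5528 CPM in the other 5 libraries, with AGP-S highest and WAXY lowest there. The 3 matched heat and stress genes, all small heat shock proteins, summed to 53.4 CPM in SPD replicate 1, 103.4 and 46.8 CPM in SPD replicates 2 and 3, and 87.2, 85.6 and 73.4 CPM in CK replicates 1 to 3. SPD replicates 1 and 3 held the lowest sums. The same libraries held the lowest levels in 4 of the 8 lower members and not in the other 4, of which 1AL was highest in SPD replicate 3, and a link of this sum to the members was not tested. The 7 matched genes of the list for dividing cells, a histone and tubulins, summed to 3342 CPM in SPD replicate 1, against 2746 to 3448 CPM in the other 5 libraries. The tubulin TUBA held 2468 CPM of that sum in SPD replicate 1 and the histone TH123 20.3 CPM. The sum is therefore mostly that of 1 tubulin and no measure of dividing cells. Of the embryo and maturation list, EM had 0 counts in all 6 libraries, and PER1, a seed peroxiredoxin, had 97.2 CPM in SPD replicate 1 and 105 to 152 CPM in the others. None of these genes met the limits that chose the 11 members.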

How the data were processed

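The authors deposited raw counts per gene identifier, 1 column per library, with totals of 10561224 to 13088727. Per the submitters' processing notes HISAT2 was used, version not stated. The counter, build, annotation and strand setting are not given in these sources. Reads of similar gene copies or antisense partners cannot be separated. Sample titles gave the groups and replicate numbers. No library was a copy of another (pairwise chi-square over degrees of freedom, 4.12 to 16.4).

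CPM were computed with Python 3.11.15 from library totals, without further scaling. The members and gene lists were chosen with earlier results of these data known. Tests used edgeR 4.0.16 in R 4.3.3 (filterByExpr with min.count 10 and min.total.count 15, TMM, quasi-likelihood, two-sided, Benjamini and Hochberg over all genes tested). Standard errors are the log2 fold change over the root of its F statistic. Members were named as those with the highest level and the largest fold (0.5 counts added) in each direction. Gene lists were matched by symbol. The search and the gene test were tested on simulated data. Alternatives were other scalings and filters, DESeq2 1.42.0, limma-voom (limma 3.58.1), the replicate number as a block, other limits of the rule and leaving out each library.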

Additional observations from a re-analysis of the deposited data

How the results depend on the processing

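Of 206 alternative values, 175 stayed the same by set limits. Fold changes of single members had to keep their direction and side of the threshold, and medians to stay within the spread among CK libraries. Counts had to stay within 1.5-fold of the main count. With a limit of 1.5-fold, 62 identifiers were higher and 50 lower, and with 3-fold 0 and 1. At 5 CPM there were 25 and 35, and at 20 CPM 0 and 3. With 1 of the other libraries left out, which can only keep or raise the numbers, they ran from 3 to 10 higher and from 8 to 16 lower. CPM scaled by TMM kept 2 of 3 higher and 8 of 8 lower members and added 1 lower identifier. For SPD against CK, genes called were 3 by the Wald test of DESeq2 and 0 to 1 with 1 library left out. For SPD replicates 2 and 3 against CK they were 1 by that test, 17 without a filter and 0 to 2010 with 1 library left out, with 0 to 2 members among them. The upper ends of the ranges for SPD replicates 2 and 3 against CK came from SPD replicate 3 alone, with no replication in SPD. In SPD against CK, the median log2 fold change of the higher members was 0.13 in limma-voom and 0.16 with the replicate block. That median ran from -0.23 to 1.001 with 1 library left out. In SPD against CK, the sign of Traes_7AL_ADBB1224B reversed in limma-voom (-0.16) and without SPD replicate 1 (-0.23, the lowest of a range up to 1.31), and that of Traes_1AL_F0648088C without SPD replicate 1 (0.085, the highest of a range down to -0.96). In SPD replicates 2 and 3 against CK, Traes_7AL_ADBB1224B ran from -3.88 to 0.69 and reversed without CK replicate 2 (0.051) and without SPD replicate 3 (0.69). Traes_1AL_F0648088C ran from -0.35 to 0.42 and reversed without CK replicate 3 (-0.041) and without SPD replicate 3 (-0.35). Traes_7AL_7CC969251 ran from -0.10 to 0.34 and reversed without SPD replicate 2 (-0.10). The cause was not tested. Deviations of same-numbered libraries correlated at 0.016, -0.058 and -0.029 (2 of 6 libraries correlated best with their own number). No pairing by number was seen, and with 3 libraries per group this check cannot exclude one. With the replicate block 0 genes were called in either comparison. At these depths 1 count was worth 0.0764 to 0.0947 CPM.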
